A study of Mus musculus with 24 samples.

Results

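Voltage-gated sodium and calcium channels open when a membrane depolarizes, and their pore proteins work together with smaller subunits that place, stabilize and tune them. The genes described here are the protein-coding mouse genes named as a sodium channel pore or beta subunit (Scn with a digit and a or b) or as a calcium channel alpha, beta or gamma subunit (Cacna, Cacnb, Cacng), kept where the mean sense-strand count over all libraries was at least 10. Of 40 genes with such a symbol 38 met that minimum, and 36 of them are described here, out of 20696 genes of any kind that did and 52636 genes in the files. Cacna1f, with a mean of 8.63 counts, and Scn4a, with 1.29, fell below it, while Cacng1 (14.3), Scn11a (22.8) and Scn10a (27.8) lay just above.

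RNA was sequenced from the bilateral nucleus accumbens (NAc), a ventral striatal reward region, of 24 C57BL/6 mice (bred from C57BL/6J in the study's methods) aged 50 days, with 1 library per animal. Each of the 4 groups, control (Con) and MSUS of either sex, held 6 animals. MSUS is maternal separation combined with unpredictable maternal stress, given to whole litters in their first 2 weeks, for 3 h a day in the study's methods and 2 h a day in its deposited design. Con litters were left undisturbed and no animal here had received cocaine. The sources used here do not tie animals to litters, so littermates within a group cannot be told apart from unrelated animals.

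In medium spiny neurons, the principal cells of the NAc, sodium channels carry the action potential, and the T-type, L-type, P/Q-type, N-type and R-type calcium channels carry calcium entry near rest, at the soma and dendrites, and at nerve terminals. Alpha2delta and beta subunits bring calcium channels to the membrane. Most gamma subunits of the brain, in spite of their name, are transmembrane AMPA receptor regulatory proteins (TARPs), which traffic and gate glutamate receptors.

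The 36 genes comprised 8 sodium channel pores, 3 sodium channel betas, 3 L-type pores, 3 P/Q-, N- or R-type pores, 3 T-type pores, 4 alpha2delta subunits, 4 calcium channel betas, 6 TARP gammas and 2 other gammas. They lay on 11 chromosomes, none of them X or Y. Chromosome 2 carried 8 (Scn1a, Scn2a, Scn3a, Scn7a, Scn9a, Cacna1b, Cacnb2, Cacnb4) and chromosome 9 carried 6, including the neighbours Scn2b and Scn4b. Cacng6, Cacng7 and Cacng8 were also close together on chromosome 7.

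Promoter windows of the channel genes were set beside the comparison of MSUS with Con females given below. RefSeq start sites on GRCm38.p6 gave a window of 250 bases upstream for 28 of the 36 genes. A GC box, written GGGCGG or CCGCCC so that both strands are covered, stood in 11 of the 28 (39.3%) and in 32.7% of 32851 mouse promoter windows of the same length. Among genes past the threshold in females, it stood in 3 of the 9 windows of genes that fell and in 0 of the 1 window of the gene that rose. The median GC content of the windows was 57.4% for the channel genes and 52.4% for all. The 28 windows were 1 per gene, at the start nearest the annotated one, in protein-coding genes with a mean count of at least 10. The 32851 windows were taken without such a choice, so the shares are not like for like. Shown here, 5′ to 3′ on the strand of the gene and with GC boxes in capitals, are the window of the 1 gene that rose (Scn9a, chr2:66634963-66635212, minus strand), of the gene that fell with the smallest p (Cacnb3, chr15:98632078-98632327, plus strand) and of the falling gene with the smallest p among those whose window holds a GC box (Cacng7, chr7:3332575-3332824, plus strand).
Scn9a: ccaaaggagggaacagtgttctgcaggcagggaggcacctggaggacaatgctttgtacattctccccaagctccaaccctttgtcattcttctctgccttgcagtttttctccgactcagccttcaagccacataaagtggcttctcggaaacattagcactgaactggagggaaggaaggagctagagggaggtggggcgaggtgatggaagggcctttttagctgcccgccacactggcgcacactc
Cacnb3: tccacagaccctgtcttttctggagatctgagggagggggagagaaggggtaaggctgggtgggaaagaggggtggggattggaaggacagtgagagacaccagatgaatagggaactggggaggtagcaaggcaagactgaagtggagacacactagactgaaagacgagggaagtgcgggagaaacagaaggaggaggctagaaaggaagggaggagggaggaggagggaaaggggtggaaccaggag
Cacng7: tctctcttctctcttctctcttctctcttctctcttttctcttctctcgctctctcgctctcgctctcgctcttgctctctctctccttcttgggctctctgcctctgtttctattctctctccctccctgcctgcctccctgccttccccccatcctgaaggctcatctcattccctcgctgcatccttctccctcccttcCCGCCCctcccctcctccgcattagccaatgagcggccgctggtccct
The Scn9a and Cacnb3 windows held 5 and 2 CpG dinucleotides and no GC box, and the Cacng7 window held 9 CpG dinucleotides and 1 GC box. The Cacnb3 window lies inside the GENCODE gene, whose annotated start is further upstream. The same holds for other windows, among them those of Cacng2, Cacng6 and Scn8a, which fell, and of Cacna1e and Cacng8. The GC box counts and GC content above therefore mix windows at and inside the annotated starts. These letters are a description of the windows and not a measure of binding.

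Levels are given as CPM, sense-strand counts scaled to library size with TMM factors, and are compared between genes only as CPM per kilobase of exon. The sodium channel beta subunits Scn4b and Scn2b held the top of the order, while Scn3b was at rank 12 with 29.7 CPM per kilobase. Scn4b, whose protein can block and unblock the open pore and which is abundant in striatum, led with 126.6 ± 27.2 CPM per kilobase (mean ± SD, n = 24), and Scn2b, a beta subunit linked to the pore by a disulfide bond, followed with 100.6 ± 6.07. Next came Scn2a (45.6 ± 3.45), Cacng7 (41.3 ± 8.66), Cacnb1 (36.6 ± 3.28) and Cacna2d3 (34.0 ± 5.72). Scn4b and Scn2b overlapped over the 24 animals, and so did each neighbouring pair from Scn2a to Cacna2d3, so that the order within each of these sets was not separated by the spread between animals. Scn2b, in contrast, was at least 90.7 CPM per kilobase in every animal and Scn2a at most 55.3. With the longest transcript as the length, Scn4b and Scn2b again led, and Cacna2d3 moved from rank 6 to rank 3 with 80.1 CPM per kilobase.

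At the other end, Scn10a (0.0645 CPM per kilobase), Scn11a (0.0726) and Cacna1s (0.0995) were the lowest. These are genes of peripheral sensory neurons and skeletal muscle, and all were below 0.1. Of the 36, 29 had over 1 CPM per kilobase and 24 over 10. The plot of levels by role shows this span.

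**Figure D1:**
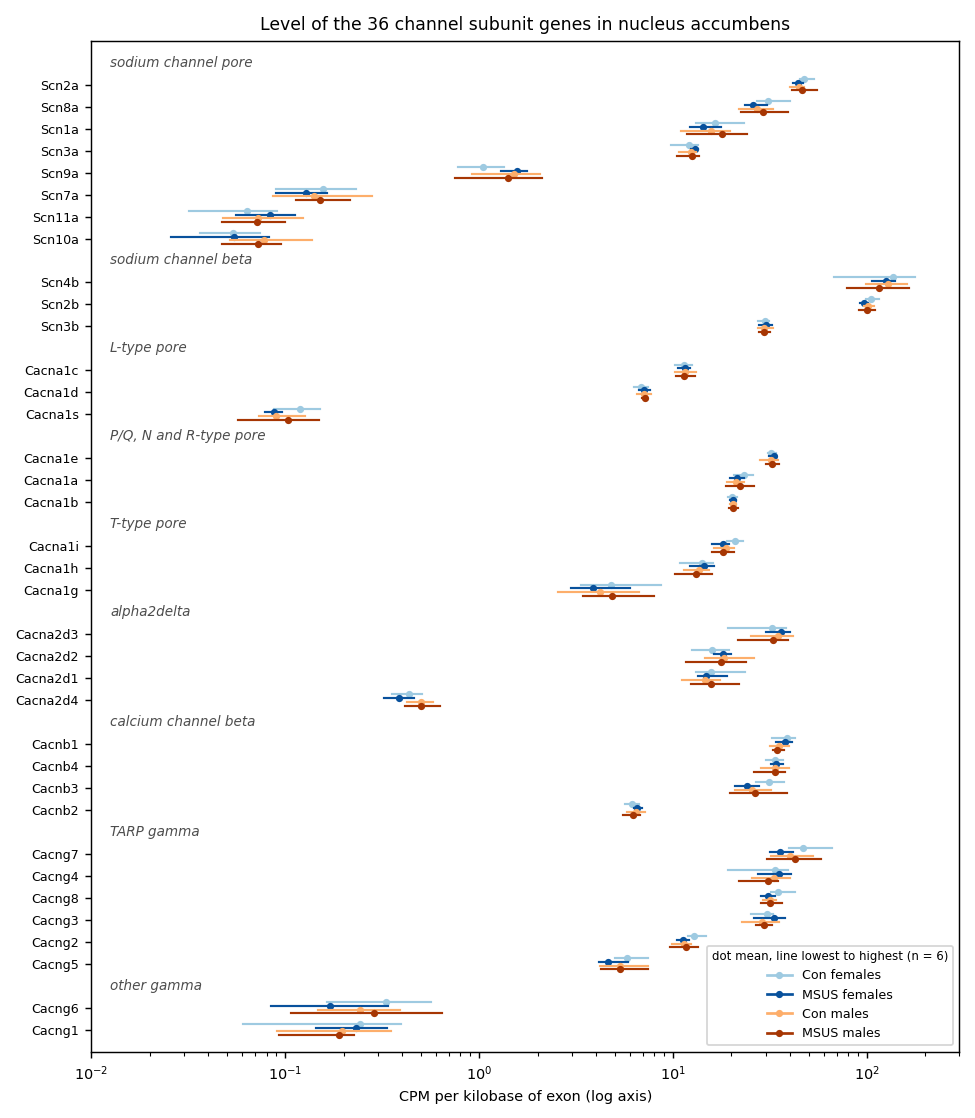
Level of each of the 36 genes in CPM per kilobase of exon on a log axis, in blocks by role, with 1 dot per group for the mean of 6 animals and a line from the lowest to the highest animal. Scn4b and Scn2b lie furthest right at 126.6 and 100.6 CPM per kilobase over all animals, and Scn10a furthest left at 0.0645.

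Within each role 1 or a few genes carried most of the level per kilobase. Scn2a, the pore of the axon initial segment of many projection neurons, made up 43.9% of the summed level of the 8 sodium channel pores (mean of 24 animals), Scn8a, the pore of mature initial segments and nodes, 27.0%, Scn1a, best known in fast-spiking interneurons, 15.3%, and Scn3a, mainly an embryonic pore, 12.2%. Cacna1e, the R-type pore, made up 43.4% of its class, ahead of the P/Q-type pore Cacna1a with 29.3% and the N-type pore Cacna1b with 27.2%. The L-type sum was 61.6% Cacna1c and 37.9% Cacna1d. Cacna1i led the T-type pores with 50.9% and Cacna2d3 the alpha2delta subunits with 50.3%. Among calcium channel betas, Cacnb1, Cacnb4 and Cacnb3 held 35.4%, 32.6% and 25.8%. The TARPs were spread more evenly, from 26.6% for Cacng7 to 3.42% for Cacng5.

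The animals differed in some genes far more than in others. Cacna1b was the steadiest, with a coefficient of variation of 3.35% over the 24 animals. The largest were those of Cacng6 (54.8%), Cacng1 (41.4%) and Scn10a (39.7%), all under 1 CPM per kilobase. Among the 29 genes above that level, Cacna1g (36.2%) and Scn9a (28.4%) varied most, over 3.38-fold and 2.80-fold.

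The libraries held between 39923666 and 70575745 sense-strand pairs in genes, and Xist and Ddx3y matched the sex label of each animal. Medium spiny neuron markers (10 genes, among them Drd1, Drd2 and Penk) summed to between 1888 and 4978 CPM. Cortical excitatory neuron markers (10 genes, among them Slc17a7 and Neurod2) summed to 345 to 1740 CPM (median 699) in the Con females and 203 to 816 (median 289) in the MSUS females. The sums were 220 to 1234 (median 415) in the Con males and 252 to 1767 (median 445) in the MSUS males. The list was mixed. In MSUS females Slc17a7 went down to 4.18 CPM and Neurod2 to 0.166, while Cux2 held 59.1 to 75.2 and Lamp5 41.4 to 71.3. The Con female medians of Cux2 and Lamp5 were 67.3 and 60.7 CPM, and the MSUS female medians 63.7 and 64.5. The unassigned share counts the pairs that met no annotated exon on the sense strand, so they can lie in introns or antisense to a gene. It was 31.0 to 34.8% in Con females and 36.3 to 43.9% in MSUS females, with no overlap. In Con males it was 34.7 to 40.6% and in MSUS males 32.2 to 44.7%. In whole tissue, fewer cells of a type and less RNA per cell cannot be told apart.

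To determine which channel genes differed after early-life stress in females, MSUS females were compared with Con females. Only 1 gene, Scn9a, rose and 9 fell at an adjusted p under 0.10 (edgeR quasi-likelihood F test, Benjamini-Hochberg adjustment over all 20571 genes tested, all 36 channel genes among them). By role, the genes that fell were 1 of 3 sodium channel betas, 1 of 4 calcium channel betas, 3 of 6 TARP gammas, 1 of the 2 other gammas and 3 pores. Of the pores, Scn8a, Cacna1i and Cacna1s fell, none of the 3 P/Q-, N- or R-type pores passed, and none of the 4 alpha2delta subunits did.

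Over all genes tested, 13.1% rose and 11.9% fell in this comparison, against 2.78% and 25% of the channel genes. The median log2 fold change was -0.08 over the channel genes and -0.0027 over all genes, and 20 of 36 were below 0. The values of the 2 groups overlapped in all 36, and did not overlap in 7.22% of all genes tested. In a set of 36 a share of that size is only a few genes, so no contrast is drawn from this. The plot of changes shows each gene's interval.

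**Figure D2:**
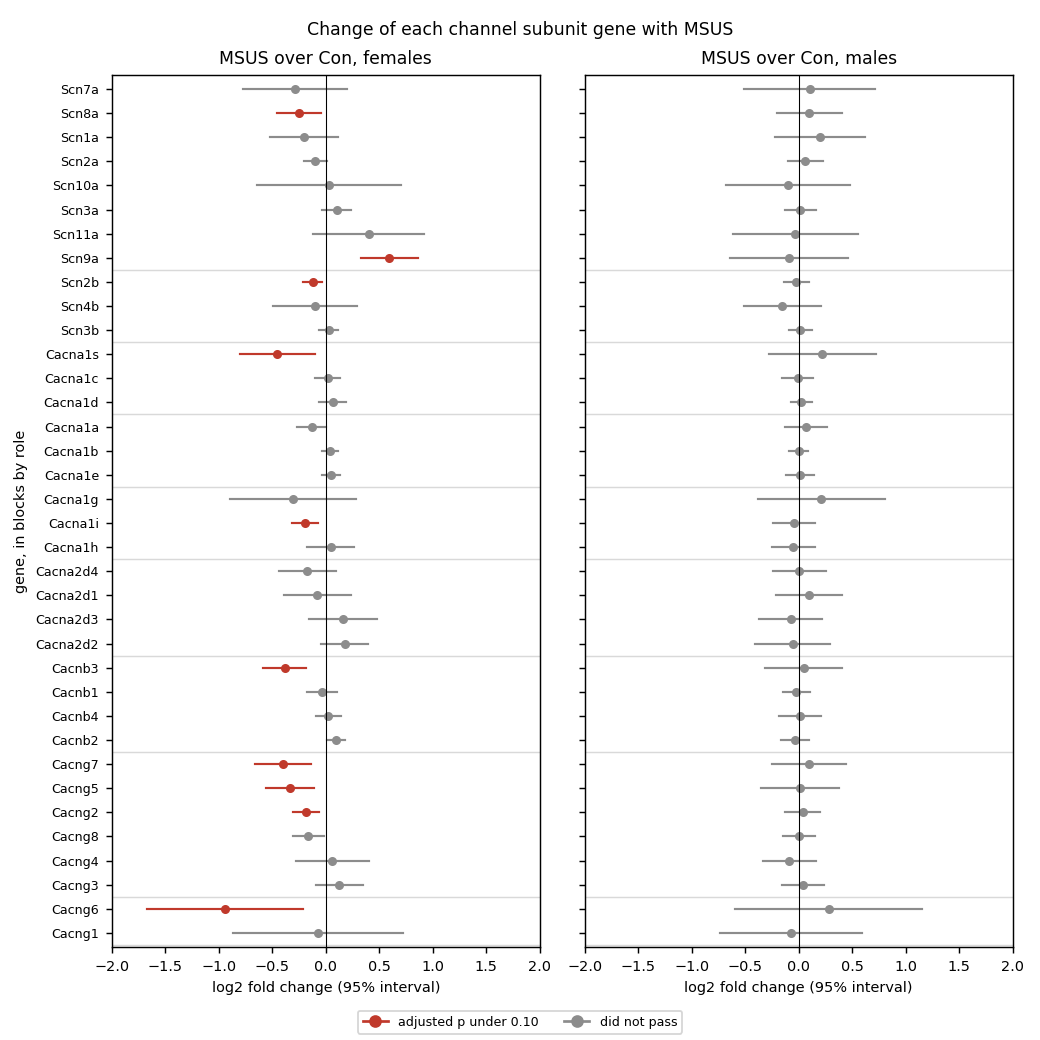
Log2 fold change of MSUS over Con for each of the 36 genes, in females (left) and males (right), with 95% intervals and in blocks by role, with genes past an adjusted p of 0.10 in red. In females 9 intervals in red lie below 0 and 1, Scn9a, above it, and in males none is red.

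Scn9a (ENSMUSG00000075316.11, GRCm38 chr2:66480080-66634962, minus strand) encodes a sodium channel pore known from nociceptors, with a low level in this tissue. Con females had between 9.88 and 17.1 CPM (median 13.3) and MSUS females between 16.5 and 22.5 CPM (median 20.98). 5 of the 6 MSUS females lay above every Con female. The log2 fold change was 0.59 (SE 0.12, adjusted p = 0.0101), a rise of 51.0%. It passed in 12 of the 13 other settings, more than any of the other 9 genes, and in all 12 fits that left out 1 animal. Male values overlapped both female groups, from 11.8 to 26.4 CPM in Con males and from 9.59 to 26.8 CPM in MSUS males. Pairs on the opposite strand came to 14.2% at this locus, and with strand ignored the log2 fold change was 0.52. Of the other 9 genes, Cacnb3, Cacna1i, Cacng7 and Cacng5 each lost the call in 4 of the 13 other settings and Cacng2 in 5. Scn2b lost it in 6 of 13, Cacng6 in 6 of 12, Scn8a in 8 of 13 and Cacna1s in 9 of 13.

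Of the sodium channel beta subunits, Scn2b fell. Scn2b (ENSMUSG00000070304.12, chr9:45117782-45130070, plus strand) had 458 to 539 CPM (median 485) in the Con females and 430 to 473 CPM (median 445) in the MSUS females. It fell by 8.10% (log2 fold change -0.12, SE 0.04, adjusted p = 0.0572), the smallest of the differences that passed. The call was lost without MSUS female 2, 3 or 5, with adjusted p of up to 0.119. Scn4b, the highest gene of the whole set, ranged from 337 to 880 CPM in Con females (median 716) and from 532 to 695 in MSUS females (median 654), and its log2 fold change was -0.10 (SE 0.18, adjusted p = 0.723). The MSUS values lay wholly inside the Con range. Scn3b did not pass (0.03).

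Among the sodium channel pores only Scn8a fell. Scn8a (ENSMUSG00000023033.14, chr15:100869858-101045938, plus strand) had 425 to 629 CPM (median 459) in the Con females and 371 to 479 CPM (median 397) in the MSUS females, with a log2 fold change of -0.25 (SE 0.09, adjusted p = 0.0841). The groups overlapped by 1 MSUS animal, and it no longer passed in 7 of the 12 fits with 1 animal left out, at adjusted p of up to 0.180. Scn2a, the most abundant pore, had 573 to 682 CPM (median 585) in the Con females and 530 to 597 CPM (median 559) in the MSUS females, with a log2 fold change of -0.10 (SE 0.05, adjusted p = 0.184). Scn1a, Scn3a, Scn7a, Scn10a and Scn11a did not pass either, and their log2 fold changes ran from -0.29 (Scn7a) to 0.40 (Scn11a, adjusted p = 0.261).

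Calcium channel beta subunits, which mask a retention signal and so bring the pore to the membrane, changed in 1 of 4 genes. Cacnb3 (ENSMUSG00000003352.13, chr15:98630840-98644529, plus strand) had 107 to 150 CPM (median 119) in the Con females and 83.3 to 111 CPM (median 93.6) in the MSUS females, and 5 of the 6 MSUS females lay below every Con female. The log2 fold change was -0.38 (SE 0.09, adjusted p = 0.0172), so that it fell by 23.4%. Cacnb1 overlapped throughout, with 147 to 193 CPM (median 179) in the Con females and 154 to 185 CPM (median 170) in the MSUS females, and its log2 fold change was -0.04 (SE 0.06, adjusted p = 0.722). Cacnb2, at 0.10, missed the threshold (adjusted p = 0.109), and Cacnb4 was at 0.02.

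Of the TARPs, 3 fell. Cacng7 (ENSMUSG00000069806.5, chr7:3332955-3368221, plus strand), a type II TARP, had 97.2 to 161 CPM (median 107) in the Con females and 76.8 to 101 CPM (median 84.6) in the MSUS females. Its log2 fold change was -0.40 (SE 0.12, adjusted p = 0.0436), and -0.27 without Con female 3, the highest animal (adjusted p = 0.0276). Cacng2 (ENSMUSG00000019146.2, chr15:77991748-78120028, minus strand), which encodes stargazin, the prototype TARP, had 65.6 to 81.6 CPM (median 70.0) in the Con females and 57.5 to 66.6 CPM (median 62.8) in the MSUS females. It fell by 12.2% (log2 fold change -0.19, SE 0.06, adjusted p = 0.0382). In both genes every MSUS female lay below the Con median.

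Cacng5 (ENSMUSG00000040373.12, chr11:107874605-107915055, minus strand), the other type II TARP, had 19.3 to 28.3 CPM (median 21.4) in the Con females and 15.96 to 22.6 CPM (median 16.9) in the MSUS females. 5 MSUS females had 17.5 CPM or less, below every Con female, and MSUS female 1 had 22.6. The log2 fold change was -0.33 (SE 0.10, adjusted p = 0.0452), and the call was lost without MSUS female 2 or 3, with adjusted p of up to 0.111. Cacng3, Cacng4 and Cacng8, the remaining TARPs, did not pass, with log2 fold changes from -0.16 to 0.12.

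Of the calcium channel pores, Cacna1i and Cacna1s passed. Cacna1i (ENSMUSG00000022416.15, chr15:80287238-80398279, plus strand), a T-type pore that opens near the resting potential, had 188 to 226 CPM (median 205) in the Con females and 157 to 192 CPM (median 183) in the MSUS females. 5 of the 6 MSUS females lay below every Con female. The log2 fold change was -0.19 (SE 0.05, adjusted p = 0.0311), so that it fell by 12.6%. The call was lost in 4 of the 13 other settings, and with offsets for GC content and length the log2 fold change was -0.016 (adjusted p = 0.878). The other T-type pores, Cacna1g and Cacna1h, did not pass, at -0.31 and 0.05. The L-type pores of neurons, Cacna1c (0.02) and Cacna1d (0.06), did not pass, nor did Cacna1a, Cacna1b and Cacna1e, which ran from -0.13 to 0.05. The alpha2delta subunits, the targets of gabapentin among them, ran from -0.17 to 0.18. Cacna2d3 (ENSMUSG00000021991.9, chr14:28904943-29721864, minus strand), the most abundant of these, had 167 to 336 CPM (median 302) in the Con females and 263 to 351 CPM (median 320) in the MSUS females. Its groups overlapped, with a log2 fold change of 0.16 (SE 0.15, adjusted p = 0.477).

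Cacna1s and Cacng6 are best known as skeletal muscle calcium channel subunits, and both were near the low end here. Cacna1s (ENSMUSG00000026407.17, chr1:136052750-136119822, plus strand) had 0.576 to 0.984 CPM (median 0.794) in the Con females and 0.514 to 0.633 CPM (median 0.560) in the MSUS females, with a log2 fold change of -0.45 (SE 0.16, adjusted p = 0.0748). Cacng6 (ENSMUSG00000078815.8, chr7:3424195-3435667, plus strand) had 0.326 to 1.12 CPM (median 0.623) in the Con females and 0.166 to 0.669 CPM (median 0.282) in the MSUS females, with a log2 fold change of -0.94 (SE 0.34, adjusted p = 0.0739). Their mean counts per library were 35.1 and 27.9, and pairs on the opposite strand came to 11.4% and 0.742%. Cacna1s and Cacng6 no longer passed in 7 and 6 of the 12 fits with 1 animal left out, at adjusted p of up to 0.145 and 0.149. Cacng1, a muscle gamma subunit, did not pass (-0.07).

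**Figure D3:**
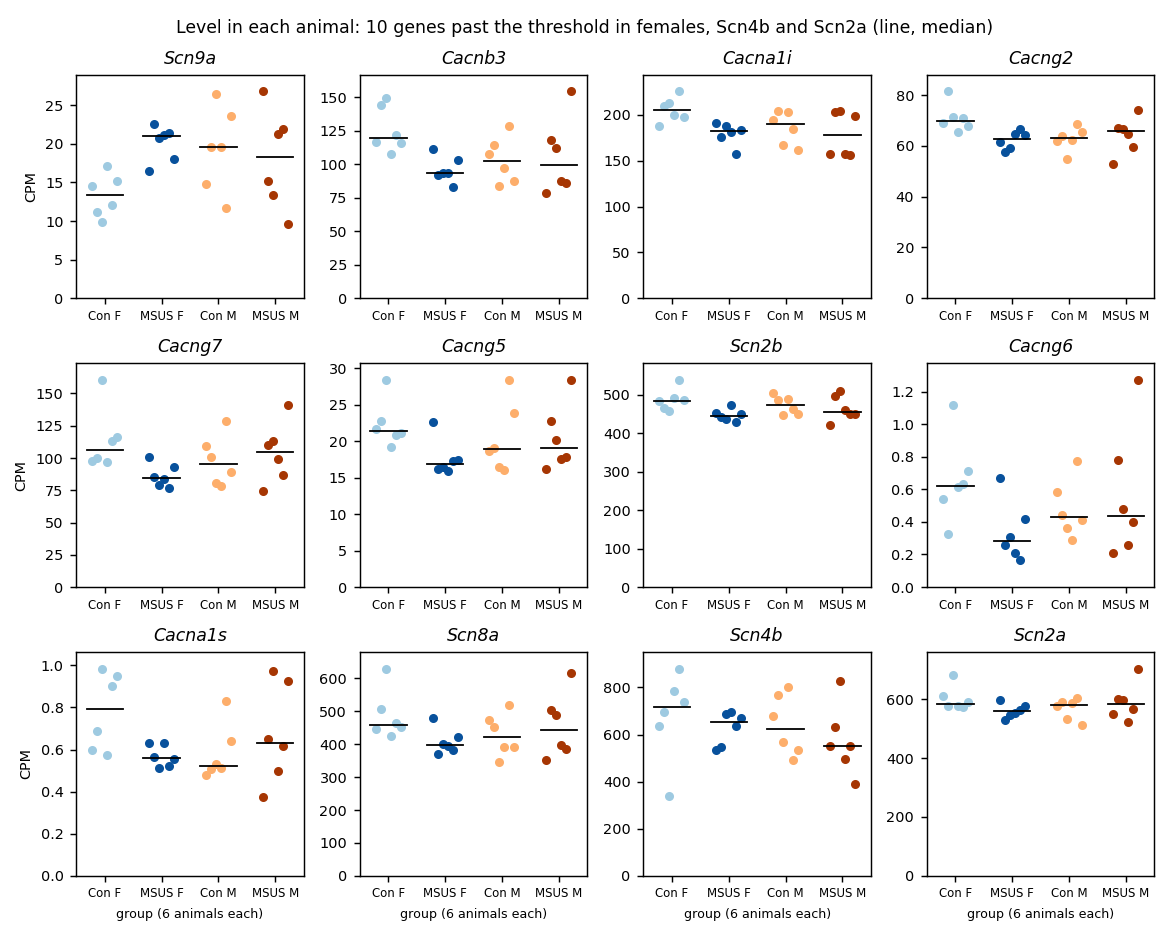
CPM in each of the 24 animals for the 10 genes past the threshold in females, ordered by p, and for Scn4b and Scn2a, with 1 dot per animal and a line at the median of each group of 6. Scn9a is higher in MSUS than Con females and the other 9 that passed are lower, with at least 1 animal overlapping in each, and the male groups overlap both.

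Levels of 21 of the 36 channel genes stood at an end of their group in the same animals. The animals with the highest cortical marker score (mean log2 CPM of the 10 cortical marker genes) were Con female 3, MSUS female 1, Con male 5 and MSUS male 6. In all 4 groups that animal was the highest of its group for 11 channel genes (30.6%), against 9.56% of the 20696 genes with a mean count of at least 10. These were Cacna1a, Cacna1g, Cacna2d1, Cacnb3, Cacng5, Cacng6, Cacng7, Cacng8, Scn1a, Scn2a and Scn8a. In all 4 groups it was the lowest for another 10 (27.8%), against 6.45% of those 20696 genes: Cacna1h, Cacna2d2, Cacna2d3, Cacnb2, Cacng1, Cacng3, Cacng4, Scn3a, Scn4b and Scn9a.

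Of the 9 genes that fell in females, Cacnb3, Cacng5, Cacng6, Cacng7 and Scn8a were highest in that animal in all 4 groups. Cacna1s was so in 3, Cacng2 in 2, Cacna1i in 1 and Scn2b in 0. Scn9a, which rose, was lowest in all 4. The same share among all genes that fell in females was not computed. The plot against the marker score shows 4 channel genes. In the female comparison the cortical marker list had a median log2 fold change of -1.79 with 2 of 10 genes past the threshold, both lower (Nrn1 and Fezf2), and the medium spiny neuron list a median of 0.09 with 0 of 10. Of the other marker lists, 4 of 6 oligodendrocyte and 3 of 6 astrocyte genes were lower, 1 of 8 interneuron genes was higher and 2 lower, 1 of 6 endothelial and mural genes was lower, and no gene of microglia, oligodendrocyte precursors or choroid plexus and ependyma passed. The part of these cell types in the channel differences was not tested beyond the fit with the cortical score. The score ran from 3.83 to 6.04 (median 4.93) in Con females and from 1.89 to 5.20 (median 3.25) in MSUS females. Because it differed with the group, a fit with the score as a covariate cannot fully separate the score from MSUS. In that fit 4.92% of all genes tested were higher and 2.70% lower. 1 channel gene (2.78%) remained past the threshold, Scn9a (log2 fold change 0.39, adjusted p = 0.0973), while Cacnb3 went to -0.18 (adjusted p = 0.188) and Scn8a to -0.08 (adjusted p = 0.698).

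**Figure D4:**
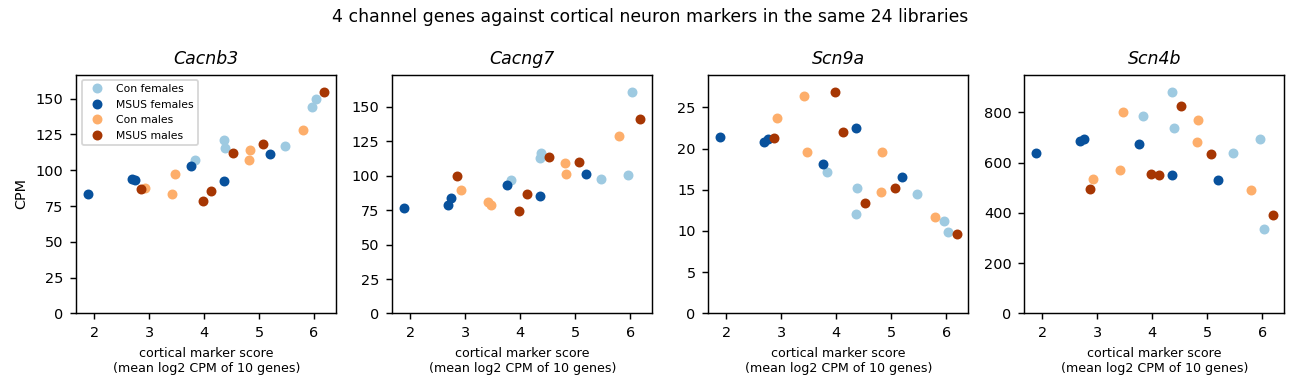
CPM of Cacnb3, Cacng7, Scn9a and Scn4b in each of the 24 libraries (vertical axes) against the cortical marker score of the same library, the mean log2 CPM of 10 genes (horizontal axes), with colours for the 4 groups. The highest score of each group goes with its highest Cacnb3 and Cacng7 and with its lowest Scn9a and Scn4b.

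The unassigned share, which did not overlap between the female groups, moved with the comparison as well. With that share as a covariate, 0 of 20571 genes passed by edgeR, with 1174 at an unadjusted p under 0.05, and 3 channel genes had an unadjusted p under 0.05 (Cacnb3, Cacna1i and Scn9a, all with an adjusted p of 0.760). The log2 fold changes were then 0.58 for Scn9a (SE 0.26), -0.50 for Cacnb3 (SE 0.20) and -0.26 for Cacna1i (SE 0.12), as large as without the covariate or nearly so and with SEs about 2 times as large. Scn2b went from -0.12 to -0.03. In these 12 animals the share and the group cannot be told apart.

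**Figure D5:**
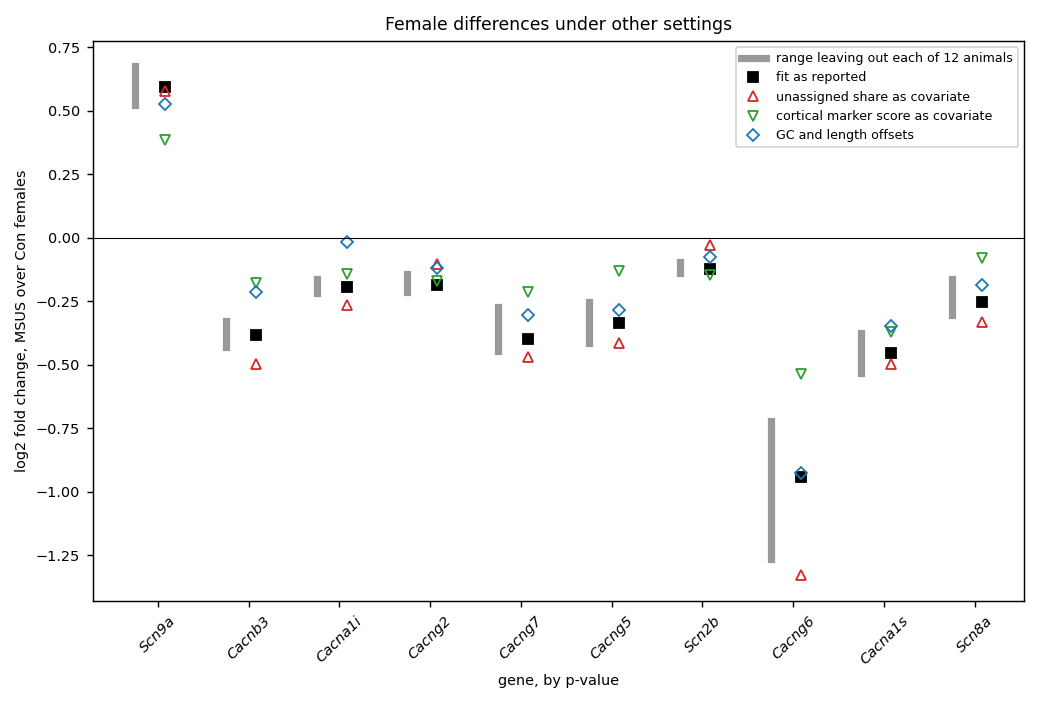
Log2 fold change of MSUS over Con females (vertical axis) for the 10 genes past the threshold, in order of p, under the fit as reported, 3 other settings (open symbols) and the range over 12 fits that each left out 1 animal (grey bars). No value shown changes sign, and with the cortical marker score as covariate Scn8a moves from -0.25 to -0.08 and Scn9a from 0.59 to 0.39.

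Gene size and base composition of the channel genes were also set beside the female differences. Over the 36 genes, Spearman's rho of the log2 fold change was 0.37 with gene length and -0.31 with the GC content of the longest transcript. This is a description of genes that share the same 12 libraries, and the same relation over all genes is not given. The 9 genes that fell had a median length of 40.5 kb and a median GC content of 53.1%, against 114 kb and 51.5% for the 26 that did not pass, and Scn9a had 155 kb and 42.4%. With offsets for GC content and length in the fit, 2 channel genes were higher and 2 lower (5.56% each), against 8.19% and 8.30% of all genes tested. Scn9a (0.53) and Cacna1b (0.14) were higher and Cacng5 (-0.28) and Scn2a (-0.14) lower, with adjusted p between 0.0350 and 0.0935. The other 8 of the 10 genes past the threshold without offsets no longer passed, among them Cacnb3 (-0.21), Cacng7 (-0.30), Cacng2 (-0.12) and Cacna1i (-0.016).

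To determine whether the same genes differed in males, MSUS males were compared with Con males. None of the 36 channel genes passed, and 0% of 20691 genes did by edgeR, with 191 at an unadjusted p under 0.05, while DESeq2 also gave 0. None of the channel genes had an unadjusted p under 0.05, and their smallest was 0.326. The log2 fold changes ran from -0.15 (Scn4b) to 0.28 (Cacng6), with a median of 0.01. Of the 10 genes that passed in females, 7 were above 0 in males and 3 below. Cacng7 had 78.6 to 129 CPM (median 95.3) in the Con males and 74.1 to 141 CPM (median 105) in the MSUS males, and its interval in males ran from -0.25 to 0.44 on the log2 scale. Cacnb3 likewise had 83.6 to 128 CPM (median 102) in the Con males and 78.5 to 154 CPM (median 99.6) in the MSUS males.

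Whether the effect of MSUS differed between the sexes was tested by the group-by-sex interaction over all 24 animals, which shares its animals with both comparisons above. None of the 36 channel genes passed and 0% of 21500 genes did by edgeR, with 4031 at an unadjusted p under 0.05, while DESeq2 called 467 genes and none of the 36. 6 channel genes had an unadjusted p under 0.05, Cacng2, Cacna1s, Cacng7, Scn9a, Cacng6 and Cacnb3, and the smallest adjusted p was 0.226. The difference of effects, female minus male, was 0.68 for Scn9a (95% interval 0.07 to 1.29), -0.50 for Cacng7 (-0.93 to -0.06) and -0.23 for Cacng2 (-0.43 to -0.03). Without MSUS male 1, 3031 genes passed, and among them Cacng2, Cacna1s, Scn9a and Cacng7.

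Between the sexes, none of the 36 channel genes passed in Con animals, where 0.799% of 20641 genes were higher in females and 1.84% lower. 6 of the 36 had an unadjusted p under 0.05, beside 3670 of the 20641 genes. They were Cacng2, Scn9a, Cacnb3, Cacna1i, Cacna1s and Cacnb1, with a smallest adjusted p of 0.137. Scn9a had a log2 fold change of -0.52 (SE 0.19, adjusted p = 0.187) for Con females over Con males, and Cacng2 one of 0.19 (SE 0.06, adjusted p = 0.137). This comparison uses the same 6 Con females as the MSUS comparison. DESeq2 called both (adjusted p of 0.0825 and 0.0949), beside 1511 of 20633 genes. Without Con male 5 the same 2 genes and Cacnb3 passed, beside 1395 of 20813 genes. In MSUS animals 0.135% of 20714 genes passed and no channel gene. At an unadjusted p under 0.05 were 2 channel genes and 1511 of all genes. The smallest adjusted p of a channel gene was 0.511.

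Partners that bind, anchor or modify these channels, together with the separate sodium leak channel complex, were counted as a further list of 33 genes. Among the partners were fibroblast growth factor homologous factors, ankyrins, calmodulins and RIM proteins. In females 1 rose and 6 fell (Calm3, Nfasc, Calm2, Rims1, Nrcam and Fgf13), 3.03% and 18.2% of the list against 13.1% and 11.9% of all genes, with a median log2 fold change of -0.06 beside -0.0027 over all genes. Calm3, a calmodulin gene, had between 769 and 953 CPM in Con females and between 645 and 734 in MSUS females, and these ranges did not overlap (log2 fold change -0.28, SE 0.06, adjusted p = 0.00974). Nfasc, the neurofascin of nodes and initial segments, had a log2 fold change of -0.21 (SE 0.06, adjusted p = 0.0340). Unc79, an auxiliary subunit of the leak channel, was the gene that rose, with 0.20 (SE 0.07, adjusted p = 0.0694). None of the 33 passed in any of the other 4 comparisons.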

How the data were processed

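RNA-seq of the NAc was done in 24 mice, 6 in each group, with 1 library per animal, after ribosomal RNA removal. Per the study's methods the authors trimmed adapters and aligned read pairs to mm10 with STAR (2.6.1b per the submitters' processing notes) and GENCODE M15. The authors deposited STAR's gene counts, which are not normalized, in 3 columns per library (both strands together, then each alone), of which the sense-strand counts were used. STAR counts a pair only if it maps to 1 place and touches 1 gene, which lowers genes with near-identical copies. Rows that name no gene stayed out of library sizes. Pairs that met no annotated exon on the sense strand made up 31.0 to 44.7% of the pairs given to 1, several or no gene.

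Gene names, positions, exon lengths and GC content (of the longest transcript) came from GENCODE M21 on GRCm38, the assembly of mm10. It held 52403 of 52636 gene identifiers. M15 calls Scn2a Scn2a1. Promoter windows came from RefSeq (GRCm38.p6). Genes were filtered by edgeR 4.0.16 filterByExpr (minimum count 10), scaled by TMM and tested with the robust quasi-likelihood F test in R 4.3.3, each comparison in its own fit, with Benjamini-Hochberg adjustment over all genes and a threshold of 0.10. The stage of the estrous cycle was left out because the labels give a stage to 6 of 12 males and to 6 of 12 females. Per the study's methods each female group mixed high- and low-estrogenic animals in equal number, and the authors' female model included stage. The female fits here differ from the study's in this. No pair of libraries within a group was a copy (lowest chi-square per gene 6.38 over 60 pairs). Alternatives included DESeq2 1.42.0, filters, strand, covariates, offsets and each animal left out.

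Of the 38 genes of the set 2 are not reported here, and counts are over the other 36. Genes past the threshold in a comparison, and the 6 with the highest level per length, are given in full, as are the 3 partner genes with the smallest p in females. The genes, partner list and marker lists were chosen with earlier results of these data known, so no adjustment over a list alone is given. P-values set each group difference against the variation between these animals, with dispersions moderated across genes. They treat the 6 animals of a group as independent. If littermates were among them, which is not known here, the p-values could be too small.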

Additional observations from a re-analysis of the deposited data

Results flagged for a closer look

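In groups of 6 animals, 14 channel genes and 3 library measures were checked for an animal standing apart from the rest of its group (Dixon's test of the gap to its nearest neighbour against the range of the group). Of 68 groups checked 5 had such an animal, and chance gives about 1 in 20. Con female 3, the Con female with the highest cortical marker score, had 160.5 CPM of Cacng7 against 97.2 to 116.5 in the other 5, and 682.5 CPM of Scn2a against 573.2 to 612.2. Con female 2 had 81.6 CPM of Cacng2 against 65.6 to 71.3. MSUS female 1, the MSUS female with the highest cortical marker score, had 22.6 CPM of Cacng5 against 15.96 to 17.5. MSUS male 6, the MSUS male with the highest cortical marker score, had 189.3 CPM of Cacna2d3 against 287.2 to 340.4. The part of the marker score in these values was not tested.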

How the results depend on the processing

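In females, 10 channel genes passed, beside 5156 of all 20571 genes tested. Counts over all genes, in brackets here, moved as well. At a threshold of 0.05 the number was 6 (3126 of 20571). It was 6 with all 24 animals in 1 fit (4087 of 21500) and 4 with GC and length offsets (3391 of 20571). As a covariate, the cortical marker score gave 1 (1569 of 20571) and the unassigned share 0 (0 of 20571). The number ran from 5 to 13 when 1 animal was left out. It was 5 without MSUS female 2 (3358 of 20712) or MSUS female 3 (3102 of 20728). It was 6 without MSUS female 5 (3753 of 20717) and 13 without MSUS female 1 (5737 of 20707). With DESeq2, other size factors, other filters or strand ignored the number was 8 to 12 (3667 to 6823 over all genes). Library set (numbers up to 12, or above) as a covariate gave 10 (5170 of 20571). Scn9a, Cacnb3, Cacna1i, Cacng2 and Cacng7 passed in all 12 fits that left out 1 animal. Replicate numbers gave no pairing, since deviations of same-numbered females correlated between -0.24 and 0.25. With a replicate block 6 channel genes passed in females, 1 higher (2.78%) and 5 lower (13.9%), against 10.5% and 8.01% of all genes tested. With GC and length offsets added to it 2 passed, both higher (Scn9a and Cacna1b, 5.56%), and none of the 9 that fell. Over all genes 5.05% were then higher and 4.90% lower. Scn4b changed sign to 0.054 with the unassigned share and to 0.038 with the block and offsets, and Cacnb1 to 0.083 with the unassigned share, 0.120 with offsets and 0.122 with block and offsets. Cacna2d3 changed sign to -0.079 with the cortical marker score. None of these passed. In males no setting gave a channel gene. For the sexes in Con animals, where 0 passed, DESeq2 gave 2 (1511 of 20633 over all genes) and counts without regard to strand 2 (1362 of 23568). Leaving out 1 animal gave 0 to 3 there, with 20 to 1395 over all genes. In MSUS animals no setting gave any. For the interaction, 0 passed, and leaving out 1 animal gave 0 to 4, the 4 without MSUS male 1, where 3031 of 21617 genes passed. The causes of these changes were not tested. Counting error was largest, relative to the level, for Cacng1, Scn11a, Scn10a, Cacng6 and Cacna1s, which had the fewest counts.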
